A study of Rattus norvegicus with 16 samples.

Results

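The genes described here are the cell cycle and proliferation genes of the rat infarct zone, a list of 40 genes chosen by name: the regulators that decide whether a cell enters the cycle, the replication machinery, the kinases and structural proteins of mitosis, and the marker Mki67. Of these 40 genes, 32 were measured among the 17085 genes of the table, and all 32 were among the 11376 genes that passed the filter on low counts. Each of the 32 would also have passed it with any 1 of the 4 groups left out. No level or difference is given here for Ccnd2, Rrm2, Tk1, Ccnb1, Ccnb2, Birc5, Kif11 and Top2a. The promoter search below covers all 40 listed genes, so its groups of genes are not the measured ones.

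The 16 RNA libraries of the rat infarct zone form 4 groups of 4. Sham rats were operated controls, and MI rats had the left anterior descending coronary artery tied off. MI_soft and MI_stiff rats had the same ligation and received a hydrogel, soft in the first and stiff in the second: a water-rich polymer network that, per the series' title, went into the myocardium by injection. One label, on RNA extraction, speaks of MI/R, a usual abbreviation for infarction followed by reperfusion, so it is not clear whether flow was restored. Strain, sex, age, the time from surgery to sampling and what the gels were made of were not given in the sources used here. The labels name 1 tissue, the infarct zone, for the Sham libraries too. Nothing in them says that each library is a different animal. The p-values therefore reflect only how far these samples differ from one another, and that spread may be technical.

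A dividing cell passes from G1, where D and E cyclins with their kinases release the E2F transcription factors from the retinoblastoma proteins, into S phase, where the Mcm helicase and Pcna copy the DNA. It then goes into mitosis, which Cdk1, Plk1 and the Aurora kinases drive, and the anaphase promoting complex ends it by marking cyclins for destruction. Adult cardiomyocytes rarely divide, whereas inflammatory cells, fibroblasts and endothelial cells divide in a healing infarct. In RNA from whole tissue, fewer cells of a type and less RNA per cell cannot be told apart.

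Genes of this list share promoter elements in textbook models: E2F sites in replication genes, and CCAAT boxes (bound by NF-Y) with the cell cycle homology region (CHR) in mitotic genes. Promoters of 30 of the 40 listed genes were found in the RefSeq promoter table of the GRCr8 assembly. The others were Ccnd1, Ccnd2, E2f1, Foxm1, Mcm4, Rrm2, Ccna2, Aurkb, Tpx2 and Ube2c. The 250 bases upstream of each start were searched on both strands for the CHR as TTTGAA or TTCGAA, the CCAAT box as CCAAT, and E2F sites as TTTCCCGC, TTTGGCGC, TTTCGCGC or TTTGCCGC, and motifs were allowed to overlap. The 200 bases nearest the start are printed, 5′ to 3′ on the gene's strand with matches in capitals, for the 3 genes that rose in MI against Sham (Cdkn2c, Mcm6 and Mcm7) and for the mitotic kinase Cdk1 and the marker Mki67. They lie at chr5:129644892-129645091 on the minus strand for Cdkn2c, at chr13:42404353-42404552 on the minus strand for Mcm6, at chr12:22163179-22163378 on the minus strand for Mcm7, at chr20:19265093-19265292 on the plus strand for Cdk1 and at chr1:199952594-199952793 on the minus strand for Mki67.
Cdkn2c: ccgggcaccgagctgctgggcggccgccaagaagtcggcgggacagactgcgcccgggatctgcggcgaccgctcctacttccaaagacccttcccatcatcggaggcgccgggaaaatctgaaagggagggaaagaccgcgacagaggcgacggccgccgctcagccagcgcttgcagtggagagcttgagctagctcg
Mcm6: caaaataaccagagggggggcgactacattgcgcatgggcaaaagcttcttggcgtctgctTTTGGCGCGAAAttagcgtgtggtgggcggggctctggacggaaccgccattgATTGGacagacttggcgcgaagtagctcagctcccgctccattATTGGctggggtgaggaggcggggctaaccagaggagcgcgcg
Mcm7: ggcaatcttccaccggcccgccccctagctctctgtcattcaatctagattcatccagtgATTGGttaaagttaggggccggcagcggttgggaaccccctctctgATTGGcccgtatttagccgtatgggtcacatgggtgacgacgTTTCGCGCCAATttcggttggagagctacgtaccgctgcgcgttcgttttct
Cdk1: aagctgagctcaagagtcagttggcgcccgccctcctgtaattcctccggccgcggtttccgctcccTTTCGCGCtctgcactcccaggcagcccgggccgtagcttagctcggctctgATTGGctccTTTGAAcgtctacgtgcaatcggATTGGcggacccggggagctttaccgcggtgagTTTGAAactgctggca
Mki67: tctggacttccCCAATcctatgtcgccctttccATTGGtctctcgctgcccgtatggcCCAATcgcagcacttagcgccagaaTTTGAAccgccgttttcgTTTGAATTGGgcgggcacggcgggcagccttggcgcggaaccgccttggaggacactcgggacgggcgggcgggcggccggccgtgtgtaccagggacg

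Mcm6 and Mcm7 carry E2F letters beside CCAAT boxes, Mki67 carries CHR and CCAAT letters, Cdk1 carries all 3 kinds, and the Cdkn2c window holds no match. In Mcm6 a forward and a reverse E2F match overlap into 1 run of capitals, in Mcm7 an E2F match runs into a CCAAT box, and in Mki67 a CHR overlaps a CCAAT box. Over the 250 bases, E2F letters were in 5 of the 8 replication and deoxynucleotide synthesis genes with a promoter (62.5%), in 1 of 19 mitotic genes (5.26%) and in 1.73% of all 33469 promoters. CHR letters were in 10 of the 19 mitotic genes (52.6%), in 2 of the 8 replication and deoxynucleotide synthesis genes (25.0%) and in 17.4% of all promoters. CCAAT was in 15 of 19 (78.9%), 5 of 8 (62.5%) and 34.0% of all promoters. A match describes letters only and is not evidence that a factor binds there.

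Library totals lay between 10940685 and 14456186 expected counts. MI 2, MI 3, MI 4 and MI_soft 4 had the fewest genes with a count, 10470, 10958, 11283 and 11785, against 12820 in MI 1. Levels are given as TPM, which is scaled for gene length and lets genes be compared, and tests rest on counts scaled by TMM factors (CPM where printed). On the TPM scale the median difference over all genes was 0.21 (log2) for MI_stiff against MI, 0.14 against MI_soft and 0.22 against Sham, whereas it was 0.01, 0.01 and 0.02 on the TMM scale. Levels in MI_stiff thus tend to look higher in TPM than in the tests, by an amount that differs between genes.

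Most of the list was expressed at low levels. Averaged over the 16 libraries, Pcna (43.8 TPM), Cdkn1a (35.2) and Ccnd1 (14.9) stood well above the other 29 genes, which ran from 0.23 TPM for Cenpf to 8.63 TPM for Cdkn2c. By mean TPM, 24 of the 32 genes were highest in MI_stiff, 5 in MI_soft, 2 in MI and 1 in Sham, and 20 were lowest in Sham and 9 in MI. On the TMM scale MI_stiff was highest for 21 genes and Sham lowest for 18. Among single libraries, MI_stiff 4 had the highest TPM for 12 genes and MI_stiff 3 for 7, whereas MI 2 was lowest for 9 and MI 3 for 7. The only counts of 0 were in those 2 MI libraries: Ccna2, Aurka, Nuf2 and Cenpf in MI 2, and Ccne1 in MI 3. A count of 0 still allows up to 3 counts, or 0.251 CPM in MI 2 and 0.281 CPM in MI 3.

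**Figure D1:**
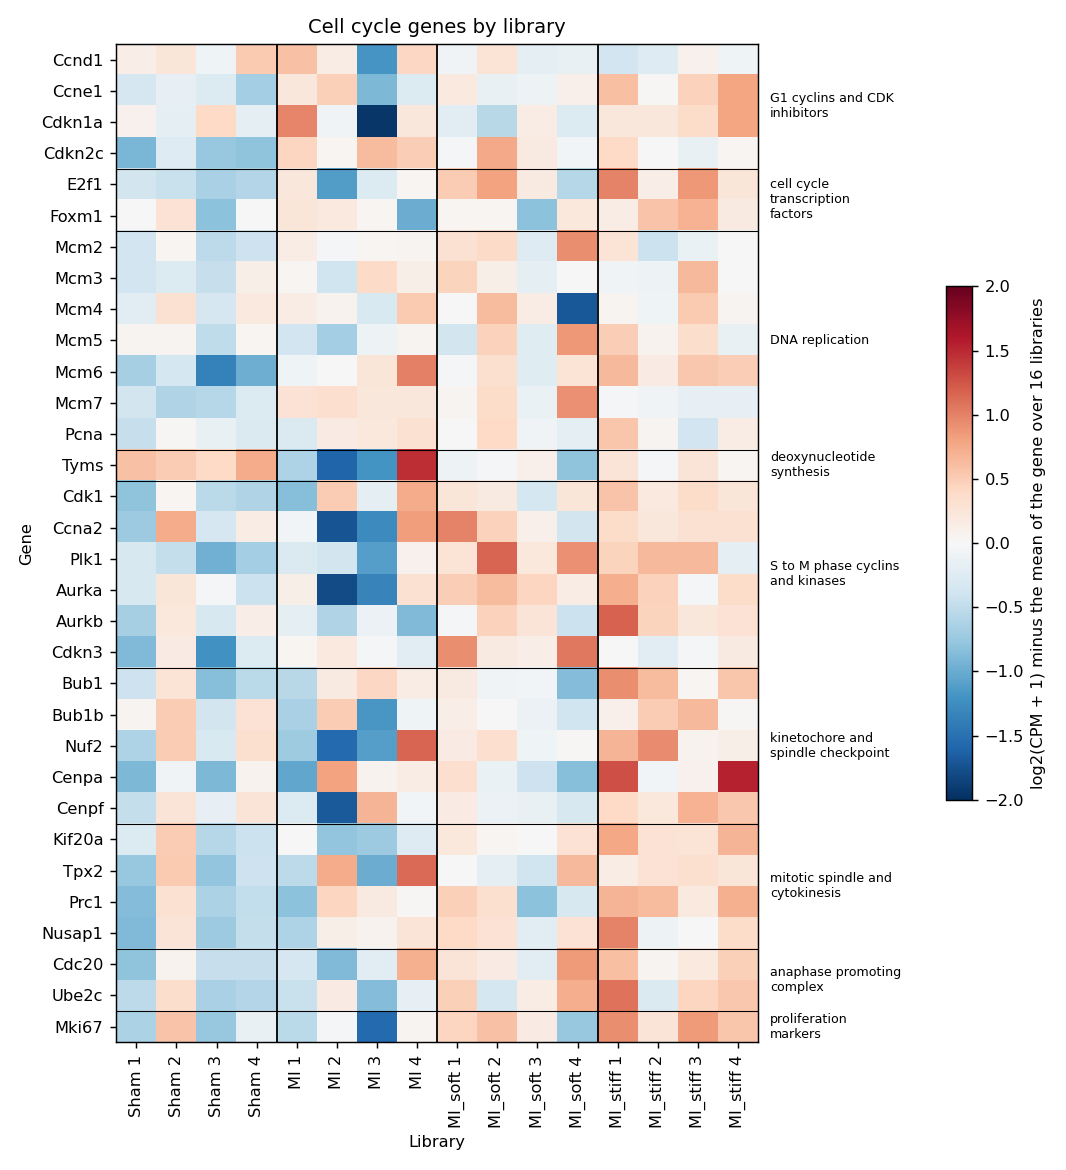
Level of each of the 32 measured cell cycle genes (rows, in their functional groups) in each of the 16 libraries (columns), as log2(TMM-scaled CPM + 1) minus the mean of the gene over all libraries. Red is above and blue below the mean of the gene. The mitotic genes in the lower part are mostly blue in Sham 1, 3 and 4 and red in MI_stiff 1, and among these genes MI 2 and MI 3 hold the darkest blue cells.

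Comparing MI with Sham asks what coronary ligation did to these genes in the infarct zone. Of the 32 genes, 3 rose and 0 fell (edgeR's quasi-likelihood test, Benjamini-Hochberg adjustment over all 11376 genes, adjusted p under 0.05). Among all genes tested, 36.6% were called, 20.2% higher and 16.4% lower, so a smaller share of the list than of all genes was called. The 3 were Cdkn2c, which encodes the p18 inhibitor of Cdk4 and Cdk6, and Mcm6 and Mcm7, subunits of the helicase that opens DNA for replication. The median log2 difference of the 32 genes was 0.34, against 0.06 over all genes, and 21 had a positive sign (52.2% of all genes). In CPM the 3 called genes were also those with every MI library above every Sham library, as 17.7% of all genes had. No call of the list was in a mitotic group: 0 of the 6 cyclins and kinases of S to M phase, 0 of 5 kinetochore genes, 0 of 4 spindle genes, 0 of 2 anaphase genes and not Mki67. By DESeq2 and by limma the count was also 3, and 3 genes had an unadjusted p under 0.05, as did 46.4% of all genes.

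Among the G1 regulators, Cdkn2c had 3.97, 4.97, 4.31 and 4.19 TPM in Sham 1 to 4, 15, 7, 11.8 and 8.97 in MI 1 to 4, 9, 14, 10.7 and 5.59 in MI_soft 1 to 4 and 10.1, 7.94, 8.68 and 11.8 in MI_stiff 1 to 4. Every infarct library, gel-treated or not, lay above every Sham library. Its log2 difference from Sham on the TMM scale was 1.18 ± 0.27 in MI (SE, adjusted p = 0.00281, edgeR), 1.01 ± 0.27 in MI_soft (adjusted p = 0.0108) and 0.83 ± 0.27 in MI_stiff (adjusted p = 0.035). The MI_soft call was lost without MI_soft 2 (adjusted p = 0.0555), and the MI_stiff call was lost without Sham 1, Sham 3, Sham 4, MI_stiff 1 or MI_stiff 4, with adjusted p up to 0.109 over its alternatives.

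Cdkn1a, the p21 inhibitor induced by p53, had 33.3, 20.1, 39.95 and 26.2 TPM in Sham 1 to 4, 84.3, 24.3, 6.1 and 27.96 in MI 1 to 4, 30.5, 20.3, 39.7 and 18.1 in MI_soft 1 to 4 and 34.2, 35.4, 48.2 and 75.2 in MI_stiff 1 to 4. MI 1 was the highest and MI 3 the lowest of all 16 libraries, so the MI group spanned the whole range. Its difference between MI and Sham was 0.08 ± 0.41 (adjusted p = 0.9, edgeR). Without MI 2, MI 3, MI 4 and MI_soft 4, with MI 1 alone left for MI and assumed to vary like the other groups, it was 0.98 (adjusted p = 0.0211), and without MI 1 it was -0.44 (adjusted p = 0.386).

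Ccnd1, cyclin D1, the partner of Cdk4 and Cdk6, had 15.7, 12.7, 12.7 and 19.8 TPM in Sham 1 to 4, 28.7, 13.3, 5.62 and 14.6 in MI 1 to 4, 15.5, 16.9, 14.3 and 9.14 in MI_soft 1 to 4 and 10.1, 11.7, 18.1 and 18.9 in MI_stiff 1 to 4. MI 1 was again the highest and MI 3 the lowest, and all 4 groups overlapped. The difference between MI and Sham was -0.09 ± 0.28, and that between MI_stiff and MI -0.29 ± 0.28 (adjusted p = 0.816 and 0.625, edgeR). Ccne1, cyclin E1, the partner of Cdk2 at the entry to S phase, was the second lowest gene of the list, with group means of 0.198 ± 0.0854 TPM in Sham and 0.925 ± 0.458 in MI_stiff (SD, n = 4). Every MI_soft and MI_stiff library lay above every Sham library, and the difference of MI_stiff from Sham, 1.81 ± 0.82, was not called (adjusted p = 0.127, edgeR).

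Of the transcription factors, E2f1, which switches on replication genes, had 0.91, 0.64, 0.73 and 0.74 TPM in Sham 1 to 4, 2.09, 0.39, 1.06 and 1.13 in MI 1 to 4, 2.26, 2.47, 1.83 and 0.54 in MI_soft 1 to 4 and 2.72, 1.5, 3.17 and 2.24 in MI_stiff 1 to 4. Sham was the tightest group, and all 4 MI_stiff libraries lay above it. The difference of MI_stiff from Sham was 1.42 ± 0.46 (adjusted p = 0.0346, edgeR). The counts of E2f1 were identical to those of its neighbour Necab3 in every library, so the value cannot be assigned to either gene. The call was lost without any 1 Sham library, MI_stiff 1 or MI_stiff 3 (adjusted p up to 0.102). Foxm1, the activator of mitotic genes, had 1.03, 1.01, 0.45 and 0.99 TPM in Sham 1 to 4, 1.71, 1.05, 0.99 and 0.3 in MI 1 to 4, 1.24, 1.06, 0.55 and 0.9 in MI_soft 1 to 4 and 1.12, 1.64, 2.23 and 1.73 in MI_stiff 1 to 4. In TPM every MI_stiff library lay above every Sham library, but the lowest MI_stiff library was within the MI and MI_soft ranges. The tested difference between MI_stiff and Sham was 0.61 ± 0.44 (adjusted p = 0.359, edgeR). Foxm1 overlaps Tex52 in RefSeq, and the strand setting was not given in the sources used here, so reads of the 2 genes may be mixed.

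In the replication group, Mcm6 had 2.44, 2.35, 1.33 and 1.83 TPM in Sham 1 to 4, 5.11, 3.44, 4.45 and 6.53 in MI 1 to 4, 4.56, 5.06, 3.91 and 3.56 in MI_soft 1 to 4 and 6.06, 4.48, 7.27 and 8.21 in MI_stiff 1 to 4. All 12 infarct libraries lay above all 4 Sham libraries, on both scales, with the highest TPM in MI_stiff 4 and the highest CPM in MI 4. Mcm6 rose by 1.26 ± 0.30 in MI (adjusted p = 0.00381, edgeR), by 0.98 ± 0.30 in MI_soft (0.0233) and by 1.37 ± 0.30 in MI_stiff (0.00349), each against Sham. The rise in MI was not called without MI 2, MI 3, MI 4 and MI_soft 4 (0.80, adjusted p = 0.112), when MI 1 stood alone, and the rise in MI_soft was lost without Sham 3, Sham 4 or MI_soft 2 (adjusted p up to 0.083).

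Mcm7 had 5.09, 3.22, 4.18 and 5.28 TPM in Sham 1 to 4, 11.01, 7.12, 7.2 and 6.11 in MI 1 to 4, 7.95, 8.62, 7.02 and 9.28 in MI_soft 1 to 4 and 6.05, 6.25, 7.11 and 8.44 in MI_stiff 1 to 4. Again every infarct library was above every Sham library. It rose by 0.75 ± 0.22 in MI and by 0.85 ± 0.22 in MI_soft (adjusted p = 0.0122 and 0.00833, edgeR), and both calls held under all alternatives run. In MI_stiff its difference from Sham was 0.36 ± 0.22 (adjusted p = 0.263).

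Mcm2, another subunit of the same helicase, was called in MI_soft against Sham, with levels of 3.59, 3.69, 3.07 and 3.4 TPM in Sham 1 to 4 and 6.83, 6.24, 4.6 and 6.77 in MI_soft 1 to 4. The 2 groups did not overlap in TPM, but did so in TMM-scaled CPM. The rise was 0.75 ± 0.25 (adjusted p = 0.0367, edgeR), and 12 of 23 alternatives lost the call: 5 other settings, and leaving out Sham 1, Sham 3, Sham 4, MI_soft 1, MI_soft 2, MI_soft 4 or MI_stiff 4 (adjusted p up to 0.114). For Mcm3, Mcm4 and Mcm5, the remaining subunits, no difference from Sham was called, and the differences lay between -0.21 (Mcm5 in MI) and 0.46 (Mcm3 in MI_stiff). Subunits of 1 complex thus differed in call, but no difference between subunits was tested.

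Pcna, the sliding clamp of the replicating polymerase, had 31.2, 32.9, 37.3 and 33.97 TPM in Sham 1 to 4, 47.1, 40.4, 45.9 and 41.2 in MI 1 to 4, 49.6, 56.5, 47.7 and 26.9 in MI_soft 1 to 4 and 59.2, 43.99, 39.4 and 67.3 in MI_stiff 1 to 4. MI and MI_stiff libraries lay above Sham in TPM, whereas MI_soft 4 was the lowest of all 16. On the TMM scale the difference from Sham was 0.32 ± 0.22 in MI, 0.26 ± 0.22 in MI_soft and 0.34 ± 0.22 in MI_stiff, and none was called (adjusted p = 0.252, 0.388 and 0.289, edgeR).

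Tyms, which makes thymidylate for DNA, was the measured gene of deoxynucleotide synthesis and had 4.11, 2.85, 3.33 and 4.52 TPM in Sham 1 to 4, 1.75, 0.18, 0.53 and 6.42 in MI 1 to 4, 2.57, 2.38, 3.09 and 0.74 in MI_soft 1 to 4 and 2.89, 2.35, 3.71 and 3.57 in MI_stiff 1 to 4. MI 4 was the highest and MI 2 the lowest of all libraries. The difference between MI and Sham was -0.63 ± 0.72 (adjusted p = 0.519, edgeR). Leaving out MI 4 made it -2.50 (adjusted p = 0.0032), and leaving out MI 2, MI 3, MI 4 and MI_soft 4 made it -1.61 (adjusted p = 0.0231), so the call on Tyms depended on which MI libraries entered.

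Among the mitotic genes, Cdk1, the kinase that starts mitosis, had 2.52, 3.93, 3.08 and 2.97 TPM in Sham 1 to 4, 3.27, 6.35, 4.02 and 7.07 in MI 1 to 4, 7.1, 5.82, 4.4 and 4.43 in MI_soft 1 to 4 and 7.45, 5.87, 8.19 and 8.73 in MI_stiff 1 to 4. All MI_soft and MI_stiff libraries lay above all Sham libraries in TPM, whereas in CPM MI_soft overlapped Sham. MI 1 lay within the Sham range in TPM. The difference from Sham was 0.74 ± 0.39 in MI and 0.94 ± 0.39 in MI_stiff, and neither was called (adjusted p = 0.14 and 0.0923, edgeR). Without MI 1 the difference in MI was 0.97 (adjusted p = 0.0357), and without MI 2, MI 3, MI 4 and MI_soft 4, which leaves MI 1 alone, it was -0.50 (adjusted p = 0.457).

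Plk1, the kinase that matures the spindle poles, had 1.06, 0.67, 0.47 and 0.69 TPM in Sham 1 to 4, 1.48, 0.85, 0.36 and 1.22 in MI 1 to 4, 2.17, 3.87, 2.06 and 2.31 in MI_soft 1 to 4 and 2.03, 2.54, 3.12 and 1.75 in MI_stiff 1 to 4. All gel-treated libraries lay above all Sham and MI libraries in TPM, with MI_soft 2 the highest, whereas in CPM MI_stiff overlapped MI. Plk1 rose against Sham by 1.77 ± 0.48 in MI_soft and by 1.44 ± 0.48 in MI_stiff (adjusted p = 0.0121 and 0.0407, edgeR). The call in MI_soft held under all 23 alternatives, whereas that in MI_stiff was lost without any 1 of the 4 Sham libraries and without MI_soft 1, MI_soft 2, MI_stiff 1, MI_stiff 2 or MI_stiff 3, and with no filter on low counts (adjusted p up to 0.123). Plk1 overlaps Ern2 in RefSeq.

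Cdkn3, a phosphatase that acts on Cdk1 and Cdk2, had 0.95, 2.76, 0.39 and 2.26 TPM in Sham 1 to 4, 4.43, 3.23, 2.81 and 1.93 in MI 1 to 4, 8.76, 3.78, 4.21 and 6.1 in MI_soft 1 to 4 and 2.95, 2.42, 3.61 and 5.28 in MI_stiff 1 to 4. MI_soft 1 and MI_soft 4 were the highest libraries, and all MI_soft libraries lay above Sham in TPM but not in CPM. It rose by 1.67 ± 0.60 in MI_soft against Sham (adjusted p = 0.0474, edgeR). This call was near the threshold: 16 of 23 alternatives lost it, with adjusted p up to 0.138, among them leaving out Sham 1, Sham 3, Sham 4, MI 1, MI_soft 1, 2 or 4, or any 1 MI_stiff library.

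Among kinetochore genes, Bub1, a kinase of the spindle checkpoint, had 1.21, 1.55, 0.8 and 1.05 TPM in Sham 1 to 4, 1.45, 1.62, 2.1 and 1.45 in MI 1 to 4, 2.2, 1.57, 1.85 and 0.6 in MI_soft 1 to 4 and 3.14, 2.67, 2.07 and 3.62 in MI_stiff 1 to 4. The MI_stiff libraries lay above Sham in TPM and overlapped it in CPM. Bub1 rose by 0.99 ± 0.35 in MI_stiff against Sham (adjusted p = 0.0499, edgeR), the call closest to the threshold of 0.05. It was lost in 13 of 23 alternatives, among them leaving out Sham 1, 3 or 4, MI 4, MI_soft 1, 2 or 3, or MI_stiff 1, 2 or 4 (adjusted p up to 0.15). Cenpa, the histone of centromeres, had 0.64, 1.26, 0.61 and 1.88 TPM in Sham 1 to 4, 0.68, 3.12, 1.79 and 1.62 in MI 1 to 4, 2.87, 1.56, 1.36 and 0.49 in MI_soft 1 to 4 and 5.14, 1.7, 2.38 and 9.41 in MI_stiff 1 to 4. MI_stiff 4 and MI_stiff 1 were far above the rest, while MI_stiff 2 was within the Sham range. The difference of MI_stiff from Sham was 1.70 ± 0.65 (adjusted p = 0.0718, edgeR). It was called by DESeq2 (adjusted p = 0.0392) and by limma on log2(TPM + 1) (adjusted p = 0.0306). Bub1b, Nuf2 and Cenpf, further kinetochore proteins, had means of at most 1.87 TPM in any group, and none was called.

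Of the spindle genes, Prc1, which bundles microtubules of the central spindle, had 1.66, 3.13, 1.93 and 2.23 TPM in Sham 1 to 4, 2.37, 3.91, 3.56 and 2.66 in MI 1 to 4, 5.48, 4.19, 2.05 and 1.91 in MI_soft 1 to 4 and 5.24, 5.12, 4.74 and 7.98 in MI_stiff 1 to 4. In TPM every MI_stiff library lay above every Sham and MI library, but in CPM MI_stiff overlapped both groups. The difference of MI_stiff from Sham was 1.004 ± 0.369 (adjusted p = 0.0617, edgeR). It was called by DESeq2 (adjusted p = 0.0441) and by limma on log2(TPM + 1) (adjusted p = 0.016). Nusap1, which stabilises spindle microtubules, had 1.44, 2.72, 1.56 and 1.98 TPM in Sham 1 to 4, 2.44, 2.74, 2.96 and 2.82 in MI 1 to 4, 4.63, 3.69, 2.93 and 2.68 in MI_soft 1 to 4 and 6.06, 2.75, 3.64 and 5.78 in MI_stiff 1 to 4. Its MI_stiff libraries lay above Sham in TPM but not in CPM, and MI_stiff 2 was within the MI range. The difference from Sham was 0.88 ± 0.36 (adjusted p = 0.091, edgeR), and its reads may be mixed with those of Ndufaf1, which it overlaps. Tpx2, an activator of Aurora A on the spindle, had group means from 1.25 ± 0.524 TPM in Sham to 2.46 ± 0.526 in MI_stiff, with no call.

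Of the anaphase promoting complex, Cdc20, its activator, had 1.44, 2.39, 1.92 and 1.93 TPM in Sham 1 to 4, 3.01, 1.12, 2.28 and 4.1 in MI 1 to 4, 4.27, 3.38, 2.84 and 4.27 in MI_soft 1 to 4 and 4.59, 3.09, 4.26 and 6.22 in MI_stiff 1 to 4. All gel-treated libraries lay above all Sham libraries in TPM, but in CPM both gel groups overlapped Sham and MI_soft 4 was the highest library. Ube2c, its ubiquitin-conjugating enzyme, had 3, 4.93, 2.5 and 2.59 TPM in Sham 1 to 4, 4.18, 7.65, 2.86 and 4.65 in MI 1 to 4, 8.54, 3.59, 6.42 and 6.56 in MI_soft 1 to 4 and 11.4, 4.94, 8.82 and 13.1 in MI_stiff 1 to 4. In TPM both genes were highest in MI_stiff 4 and MI_stiff 1, whereas in CPM Ube2c was highest in MI_stiff 1 and MI_soft 4. Their differences of MI_stiff from Sham were 0.89 ± 0.43 and 1.07 ± 0.51 (adjusted p = 0.152 and 0.145, edgeR), and neither was called.

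Mki67, the nuclear protein that marks cycling cells, had 0.57, 1.07, 0.49 and 0.8 TPM in Sham 1 to 4, 0.82, 0.76, 0.24 and 0.75 in MI 1 to 4, 1.47, 1.41, 1.21 and 0.37 in MI_soft 1 to 4 and 1.73, 1.12, 2.11 and 2.01 in MI_stiff 1 to 4. The Sham and MI ranges overlapped, with MI 3 the lowest library, and all 4 MI_stiff libraries lay above both groups in TPM, whereas in CPM MI_stiff overlapped Sham. The difference between MI and Sham was -0.28 ± 0.41 (adjusted p = 0.623, edgeR), so no rise of this marker with ligation was detected. Against Sham it was 0.36 ± 0.41 in MI_soft and 0.88 ± 0.41 in MI_stiff (adjusted p = 0.535 and 0.139).

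**Figure D2:**
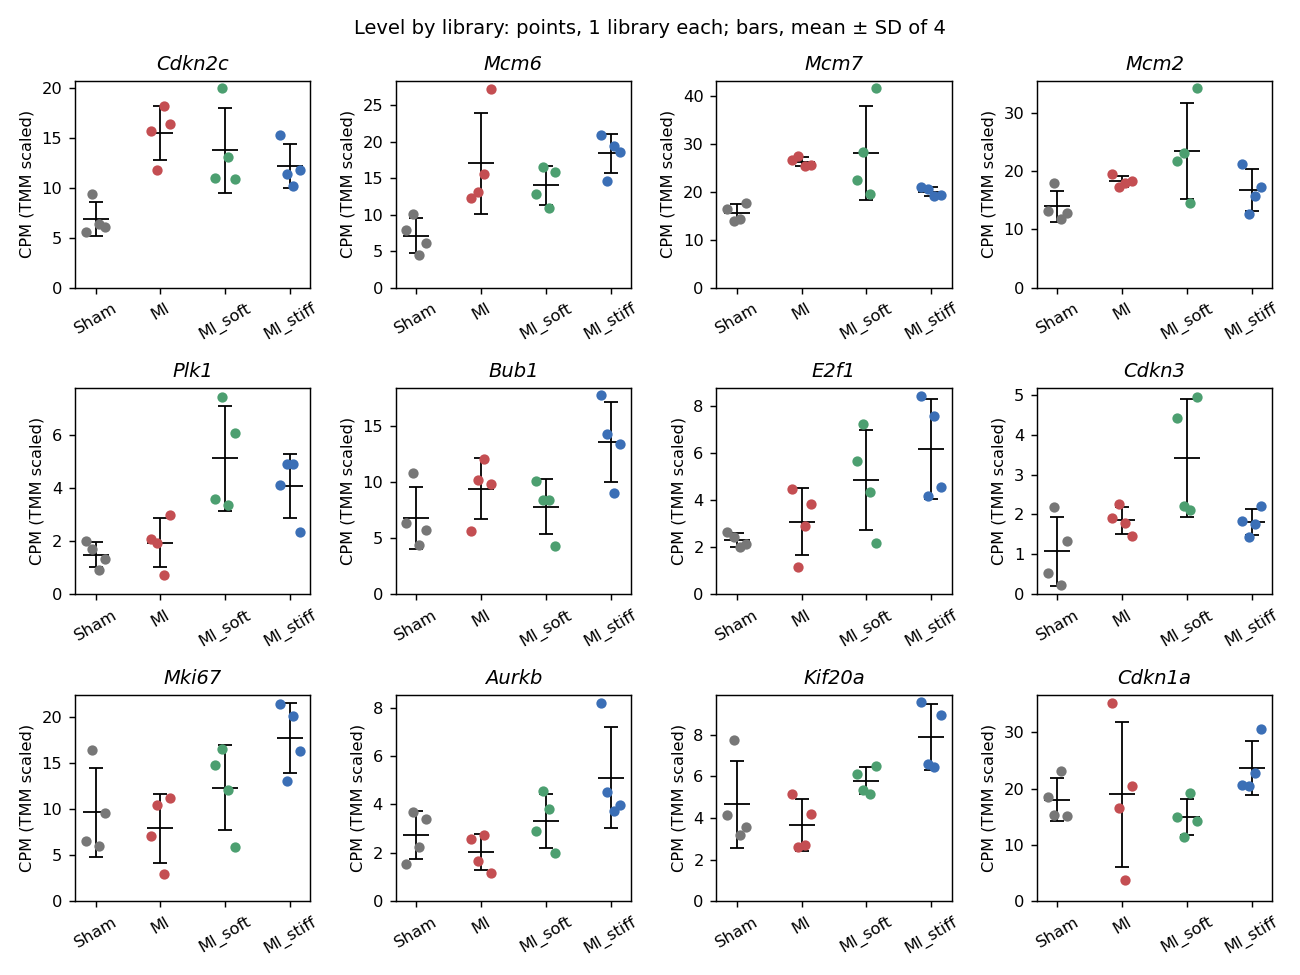
TMM-scaled CPM of 12 cell cycle genes by group, with 1 point per library and bars for mean ± SD of 4 libraries. Cdkn2c and Mcm6 are lower in Sham than in every infarct group, and Mki67, Aurkb and Kif20a are highest on average in MI_stiff, where the 4 points lie above the 4 MI points.

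The gel-treated groups were also set against Sham, which the MI comparison shares as its control. In MI_soft 6 of the 32 genes rose and 0 fell (Cdkn2c, Mcm2, Mcm6, Mcm7, Plk1 and Cdkn3), with 26.1% of all genes called, 16.4% higher and 9.71% lower. An unadjusted p under 0.05 was reached by 7, against 38.6% of all genes. In MI_stiff 5 rose and 0 fell (Cdkn2c, E2f1, Mcm6, Plk1 and Bub1), with 21.2% of all genes called, 12.7% higher and 8.44% lower. There 13 reached an unadjusted p under 0.05, against 34.1% of all genes. The median log2 difference of the 32 genes was 0.39 in MI_soft and 0.73 in MI_stiff, against 0.01 and 0.02 over all genes. The sign was positive for 25 of the 32 genes in MI_soft (50.3% of all genes) and for 30 in MI_stiff (51% of all genes), where Ccnd1 and Tyms were the exceptions. In CPM, 5 genes had every MI_soft library above every Sham library and 1 (Tyms) below, against 20.9% and 20% of all genes, and in MI_stiff 8 were above and 1 (Tyms) below, against 19.3% and 19.1%.

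The MI_stiff count depended on the libraries used. It was 14, all higher, without MI 2, MI 3, MI 4 and MI_soft 4, where 22.7% of all genes were called higher, and 11 in a fit of Sham and MI_stiff alone, where 21.9% were. It was 12 by limma on log2(TPM + 1) (16.2%), 7 by DESeq2 (13.5%), 4 with RLE size factors (12.3%) and 3 with no filter on low counts (9.72%). Beyond the genes of the main fit, limma called Ccne1, Cdc20, Cdk1, Cenpa, Nusap1, Prc1 and Ube2c, and DESeq2 called Cenpa and Prc1. The fit of Sham and MI_stiff alone added Ccne1, Cdc20, Cdk1, Cenpa, Mki67 and Prc1. The count was 7 without Sham 2 (10.2%) or MI 1 (13.6%). It was 1 (Mcm6) without Sham 1, Sham 3, Sham 4 or MI_stiff 1, where 9.24% to 10% of all genes were called higher, and 3 without MI_soft 1, MI_soft 2, MI_stiff 2, MI_stiff 3 or MI_stiff 4 (9.36% to 11.8%). The MI_soft count was 3 without Sham 3 (13% of all genes called higher) or Sham 4 (12.2%) and 2 without MI_soft 2 (13.6%). The MI count was 5 without MI 4: 3 genes were called higher, against 17.8% of all genes, and 2 lower, Tyms and Nuf2. In the fit with every library, 16.4% of all genes were called lower in MI.

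Whether a gel changed these genes after infarction is asked by comparing each gel group with MI, a control that both comparisons share. In MI_soft against MI, 0 of the 32 genes were called by edgeR's quasi-likelihood test, 0 by DESeq2 and 0 by limma, and 1 (Plk1) had an unadjusted p under 0.05. Among all genes 0.0264% were called, all lower, and 15.5% had an unadjusted p under 0.05. Plk1 was also the 1 gene with every MI_soft library above every MI library in CPM, against 2.55% of all genes, and 0 lay below, against 1.69%. The sign was positive for 19 of the 32, and for 53.5% of all genes. In MI_stiff against MI, 0 of 32 were called by edgeR, 1 (Kif20a) by DESeq2 and 0 by limma, and 5 had an unadjusted p under 0.05 (E2f1, Plk1, Aurkb, Kif20a and Mki67). Among all genes edgeR called 1.19% (0.492% higher, 0.694% lower), and 17% had an unadjusted p under 0.05. DESeq2 called 2.53% of all genes higher, and limma 0.826%. The median log2 difference of the 32 genes was 0.53 in MI_stiff and 0.09 in MI_soft, against 0.01 and 0.05 over all genes, and 26 of the 32 genes had a positive sign in MI_stiff against 50.7% of all genes.

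By function, the median difference of MI_stiff from MI was 0.78 for the 2 transcription factors, 0.02 for the 7 replication genes, 0.01 for the 4 G1 genes, 0.89 for the 6 cyclins and kinases of S to M phase, 0.82 for the 5 kinetochore genes, 0.51 for the 4 spindle genes and 0.78 for the 2 anaphase genes. In MI_soft against MI these medians were 0.30, 0.06, -0.17, 0.85, 0.05, 0.11 and 0.62. No difference between the groups of genes was tested. A list of 66 other mitotic genes had a median of 0.74 in MI_stiff and 0.22 in MI_soft, both against MI.

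Kif20a, a kinesin of the central spindle, had 5.16, 2.597, 2.72 and 4.19 CPM (TMM-scaled) in MI 1 to 4, 6.13, 5.32, 5.16 and 6.52 in MI_soft 1 to 4 and 9.57, 6.59, 6.47 and 8.93 in MI_stiff 1 to 4. The MI_stiff libraries lay above MI without overlap in CPM, whereas in TPM MI_stiff 2 (2.01) fell just below MI 1 (2.15). The difference was 1.10 ± 0.35 (adjusted p = 0.129, edgeR), with 1.13 and adjusted p = 0.0351 by DESeq2, and 1.32 and adjusted p = 0.0342 by edgeR without MI 1. Of all genes, 2.53% were called higher by DESeq2 and 7.1% by edgeR without MI 1, against 0.492% in the main fit. Kif20a overlaps Cdc23 in RefSeq.

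Aurkb, the kinase of the chromosomal passenger complex, had 2.58, 1.68, 2.72 and 1.18 CPM in MI 1 to 4 and 8.19, 4.504, 3.73 and 3.96 in MI_stiff 1 to 4. MI_stiff 1 was the highest library by far and the 2 groups did not overlap. The difference was 1.31 ± 0.45 (adjusted p = 0.158, edgeR). Mki67 had 7.07, 10.5, 3.002 and 11.2 CPM in MI 1 to 4, 14.9, 16.6, 12.1 and 5.93 in MI_soft 1 to 4 and 21.4, 13.1, 20.2 and 16.3 in MI_stiff 1 to 4. MI_stiff lay above MI without overlap and overlapped MI_soft. Its difference from MI was 1.16 ± 0.41 in MI_stiff and 0.64 ± 0.41 in MI_soft (adjusted p = 0.166 and 0.461, edgeR). In CPM, 3 of the 32 genes had every MI_stiff library above every MI library (Aurkb, Kif20a and Mki67), as did 3.97% of all genes, and 1 (Mcm7) had every one below, as did 3.9%.

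The difference of Plk1 from MI was 1.39 ± 0.48 in MI_soft and 1.06 ± 0.47 in MI_stiff (adjusted p = 0.193 and 0.264, edgeR). For E2f1, whose counts equal those of Necab3, it was 0.99 ± 0.45 in MI_stiff (adjusted p = 0.272). For Aurka, the kinase of spindle poles, it was 1.20 ± 0.75 in MI_soft and 1.15 ± 0.75 in MI_stiff, with MI 2 at a count of 0. Its reads may be mixed with those of Fam210b, which it overlaps. For Ccna2, cyclin A2, it was 0.83 ± 0.83 and 0.72 ± 0.83, with SEs near 0.83 that left a difference of this size undetectable.

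**Figure D3:**
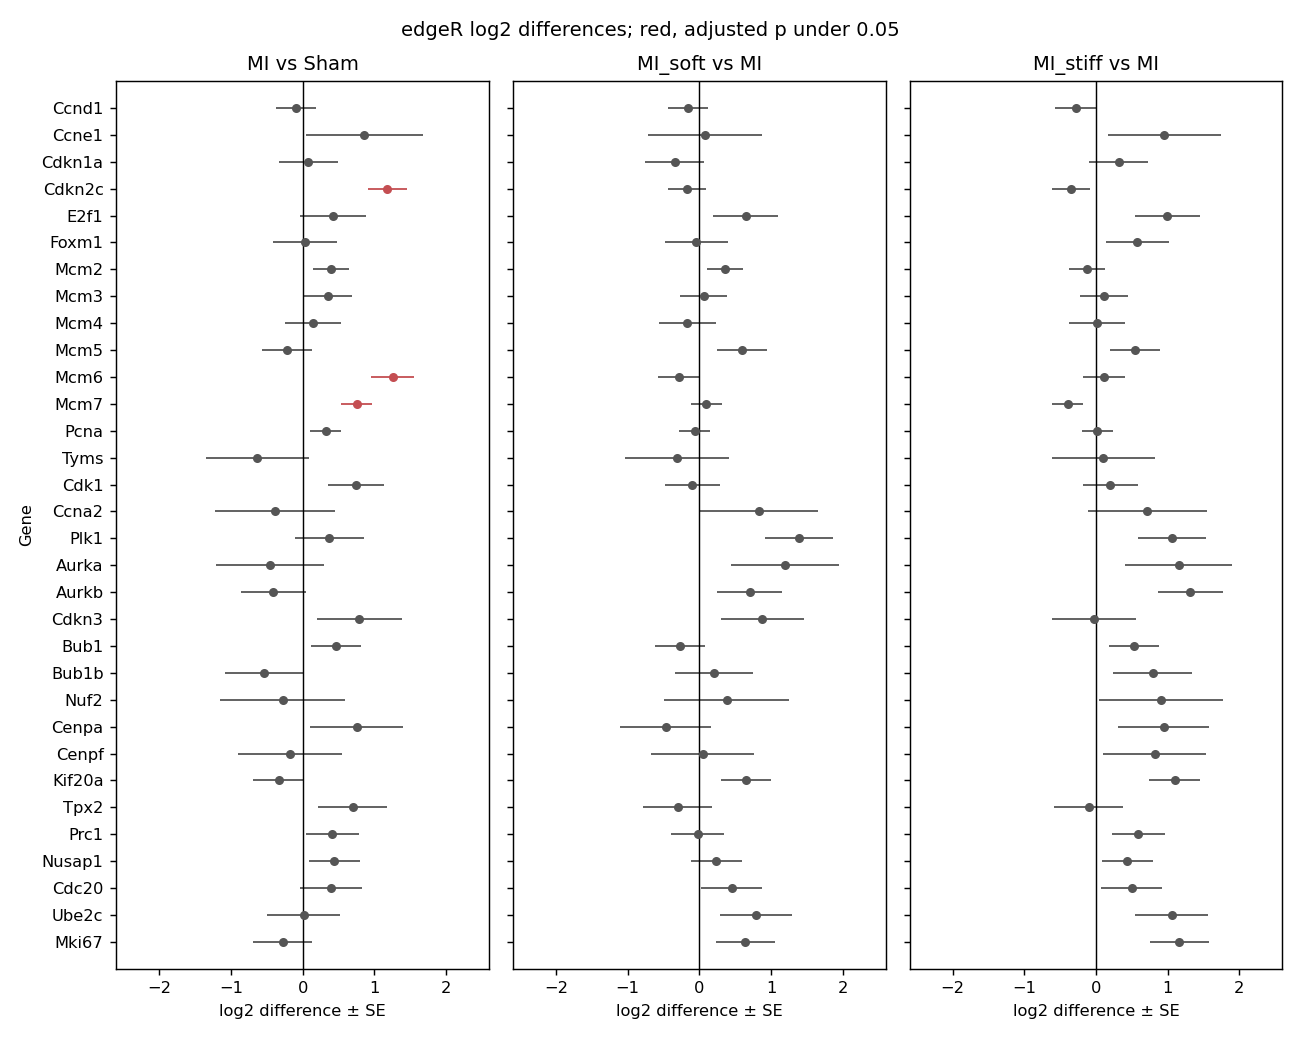
Log2 difference ± SE (TMM scale) of each of the 32 genes in 3 comparisons, with genes called at an adjusted p under 0.05 in red (edgeR). Cdkn2c, Mcm6 and Mcm7 are red in MI against Sham, no gene is red in either gel comparison, and most points for MI_stiff against MI lie to the right of 0.

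Comparing the 2 gels with each other, 0 of the 32 genes were called by edgeR's quasi-likelihood test, 0 by limma and 0 by DESeq2, which gave no adjusted p for 14 of them. Among all genes 0.0967% were called, 0.0615% higher and 0.0352% lower. In CPM, 2 genes (Cdkn1a and Cenpf) had every MI_stiff library above every MI_soft library, against 4.47% of all genes, and 0 had every one below, against 6.87%. An unadjusted p under 0.05 was reached by 3 genes, against 14.3% of all genes: Mcm7 at -0.49 ± 0.22, Bub1 at 0.80 ± 0.35 and Cenpa at 1.42 ± 0.64 in MI_stiff against MI_soft (adjusted p = 0.321, 0.31 and 0.326). Mcm7 had 20.97, 20.5, 19.1 and 19.2 CPM in MI_stiff 1 to 4 against 22.4, 28.3, 19.6 and 41.6 in MI_soft 1 to 4. MI_soft 4 was the highest of those, and MI_soft 3 lay within the MI_stiff range. The median difference of the 32 genes was 0.28, against 0.01 over all genes, and 23 were positive, against 50.4% of all genes.

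Summed over the 18 measured mitotic genes, Mki67 included, the level was 25.6 ± 7.16 TPM for Sham, 34.2 ± 5.30 for MI, 45.95 ± 11.01 for MI_soft and 62.4 ± 15.04 for MI_stiff (SD over 4 libraries). The sum ranged from 26.9 to 39.3 TPM in MI and from 45.8 to 81.6 in MI_stiff, without overlap, and MI_soft (36.8 to 61.8) overlapped both. For Mcm2 to Mcm7 the sums were 16 ± 2.15, 24.6 ± 5.75, 26.4 ± 3.02 and 28 ± 5.98 TPM, with every infarct library above every Sham library. These sums are a description with no test, and the TPM shift of MI_stiff given above is part of them.

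Cell type markers also varied between these groups. The summed TPM of 9 macrophage and monocyte markers ranged from 82.6 to 127 in Sham, 278 to 1444 in MI, 1481 to 3060 in MI_soft and 434 to 2220 in MI_stiff, where MI_stiff 2 held the lowest value. That library was also the lowest of its group for the mitotic sum (45.8). MI_stiff 4 was the highest of its group for both sums (2220 and 81.6). MI_soft 4 had the highest macrophage sum of its group (3060) and the lowest mitotic sum (36.8). MI 4 had the lowest macrophage sum of its group (278) and the highest mitotic sum (39.3). MI 3, with the lowest mitotic sum of its group (26.9), had a macrophage sum of 362. MI_soft 3, with the lowest macrophage sum of its group (1481), had a mitotic sum of 40.6. No relation between these sums was tested. Lyz2 was the largest part of the macrophage sum, with a mean of 1360 of 2018 TPM in MI_soft. The 10 fibroblast markers ranged from 783 to 1070, 4233 to 8025, 3090 to 5294 and 3642 to 6495, and the 7 endothelial markers from 200 to 253, 296 to 341, 215 to 229 and 242 to 382. Among the endothelial markers, Cdh5 averaged lower in MI (22.8 TPM) than in Sham (55.4), and the others higher. The 11 lymphocyte markers ranged from 17.8 to 25.6, 7.14 to 112.9, 55.4 to 116.4 and 11.6 to 54.9, and the 4 plasma and B cell markers from 0.98 to 2.94, 0.81 to 28.2, 35.2 to 316 and 2.14 to 4.81.

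The 9 cardiomyocyte markers ranged from 30610 to 46280 in Sham and from 14260 to 29970 over the infarct groups, so these markers were present in every library. The 6 smooth muscle and pericyte markers ranged from 98.9 to 208.6, 207 to 729, 309 to 460.3 and 190 to 363. Of these, Rgs5 averaged lower in MI (45 TPM) than in Sham (95.1), and the others higher. The 4 skeletal muscle genes, some of which the heart also expresses, ranged from 1991 to 8203 (in MI 1) over all libraries, mostly from Acta1 and Ckm. Myl1 averaged 1.16, 228.1, 75.02 and 23.22 TPM in Sham, MI, MI_soft and MI_stiff. Tnnt3 averaged 0.998, 96.55, 23.61 and 3.67, Acta1 1312, 2584, 2541 and 1809, and Ckm 2102, 1083, 1207 and 981. Neutrophil markers (6) summed to at most 64.6. Mpo and Elane were each at 0 in 13 of 16 libraries, Cxcr2 in 5, S100a8 in 2, S100a9 in 1 and Csf3r in 1. S100a8 averaged 6.6, 7.08, 19.2 and 19.1 TPM in Sham, MI, MI_soft and MI_stiff, and S100a9 6.73, 9.79, 23.7 and 10.5. The 2 red blood cell genes ranged from 287 to 2860. The part of these cell types in the cell cycle results was not tested.

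**Figure D4:**
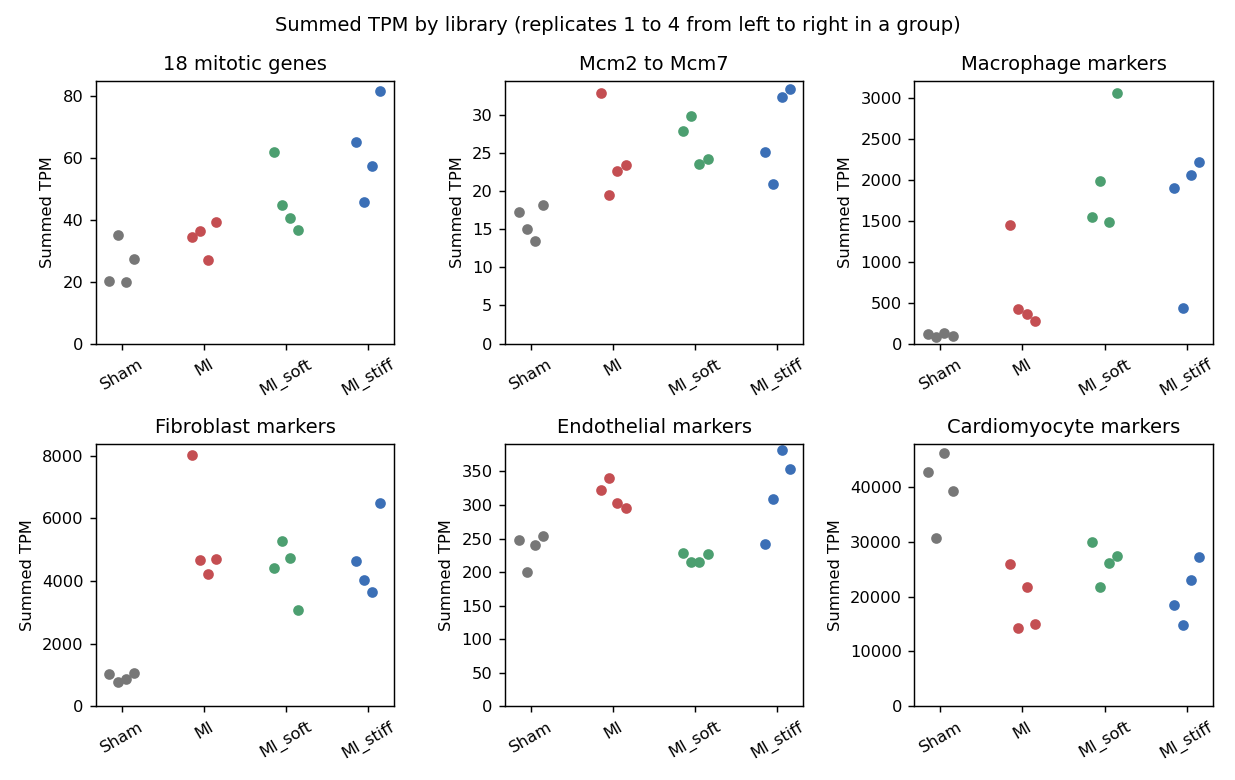
Summed TPM per library (points, replicates 1 to 4 from left to right) of the 18 mitotic genes, of Mcm2 to Mcm7 and of 4 cell type marker lists, by group. The mitotic sum lies between 45.8 and 81.6 TPM in MI_stiff and between 26.9 and 39.3 in MI, and macrophage markers are higher in MI 1 than in the other 3 MI libraries.

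Of 177 other cell cycle genes, 155 were measured and 144 tested. Against Sham, 18 rose and 12 fell in MI, 9 rose and 4 fell in MI_soft, and 9 rose and 4 fell in MI_stiff. By edgeR these are 20.8%, 9.03% and 9.03% of the 144 genes, below the 36.6%, 26.1% and 21.2% called among all genes. DESeq2 called 19, 10 and 16 higher and 17, 5 and 5 lower, where 18.6%, 16.2% and 13.5% of all genes were called higher. Limma on log2(TPM + 1) called 16, 12 and 39 higher and 7, 2 and 0 lower, where these shares were 16.4%, 14.6% and 16.2%. Limma used the TPM scale, on which the median MI_stiff difference from Sham over all genes was 0.22. By edgeR in MI, the 32 other G1 regulators had 7 higher and 4 lower. The 46 other replication genes had 5 and 3, and the 66 other mitotic genes 6 and 5. E2f6, a repressor of the E2F family, fell by 2.76 ± 0.39 in MI, from 56.3 ± 6.82 to 8.28 ± 5.31 CPM, by 1.62 ± 0.37 in MI_soft and by 1.31 ± 0.37 in MI_stiff (adjusted p = 4.76e-05, 0.00388 and 0.0166, edgeR). Cdkn2b, the p15 inhibitor of Cdk4 and Cdk6, had 0.0629 ± 0.0426 CPM in Sham, 1.71 ± 0.73 after MI, 1.39 ± 0.69 with the soft gel and 2.75 ± 0.75 with the stiff gel (adjusted p = 0.000331, 0.000809 and 0.000192). It was close to 0 in Sham, so no fold is given. Cdk4, the kinase that both inhibitors bind, rose by 1.11 ± 0.24 in MI, from 28.6 ± 1.79 to 61.9 ± 8.72 CPM, and by 1.05 ± 0.24 in MI_soft (adjusted p = 0.00166 and 0.00355).

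Ncapg2, a condensin subunit, fell by 1.88 ± 0.38 in MI, 2.23 ± 0.38 in MI_soft and 1.13 ± 0.37 in MI_stiff, from 15.2 ± 2.46 CPM in Sham (adjusted p = 0.00107, 0.000413 and 0.0358, edgeR). Myc, a growth-promoting transcription factor, rose from 4.96 ± 0.59 CPM in Sham to 13.6 ± 4.96 after MI, 17.7 ± 3.83 with the soft gel and 13.7 ± 6.45 with the stiff gel (adjusted p = 0.00717, 0.00215 and 0.0113). Btg1, an antiproliferative factor, rose by 1.07 ± 0.27 in MI and 1.17 ± 0.27 in MI_stiff (adjusted p = 0.00466 and 0.00446). Rpa2, a subunit of the single-strand binding protein of replication, rose by 0.73 ± 0.22 in MI and 0.86 ± 0.22 in MI_stiff (adjusted p = 0.0162 and 0.00986). Rpa1, another subunit, went the other way, at -1.06 ± 0.27 in MI and -0.74 ± 0.27 in MI_soft against Sham (adjusted p = 0.00548 and 0.0488, edgeR). Tacc3, a spindle microtubule protein, rose by 1.33 ± 0.35 in MI_soft and 1.34 ± 0.35 in MI_stiff (adjusted p = 0.00903 and 0.0107).

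In the gel comparisons 0 of the 144 genes were called by edgeR's quasi-likelihood test, with 13 at an unadjusted p under 0.05 in MI_soft against MI, 24 in MI_stiff against MI and 12 in MI_stiff against MI_soft. These are 9.03%, 16.7% and 8.33% of the 144 genes, against 15.5%, 17% and 14.3% of all genes. DESeq2 called 0, 5 (Aspm, E2f6, E2f7, Iqgap3 and Ncapg, all higher) and 1 (Pold2, lower), with no adjusted p for 75 genes in the last comparison, and limma on log2(TPM + 1) called 0, 3 (Cks2, E2f6 and Iqgap3, all higher) and 0. Among all genes, DESeq2 called 1.11%, 2.53% and 1.06% higher in these comparisons, and limma 0.0352%, 0.826% and 0.0879%. The cell cycle genes called by these tools are named after their values were seen. By edgeR, E2f6 differed by 1.45 between MI_stiff and MI, with adjusted p = 0.0647.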

How the data were processed

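RNA of the rat infarct zone was sequenced in 16 libraries. The submitters' processing notes list STAR 2.7.3a, RSEM 1.3.1 and the rn7 build. Annotation and strand setting were not given in the sources used here. The authors deposited expected counts per gene (0.785% not whole), which were rounded, and TPM for the same genes. Groups and replicate numbers came from the labels.

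Counts were tested with edgeR 4.0.16 (R 4.3.3): default filter by expression, TMM scaling, quasi-likelihood fit with robust estimation, 1 coefficient per group over all 16 libraries, and Benjamini-Hochberg adjustment over 11376 genes, where an adjusted p below 0.05 was a call. The biological coefficient of variation common to all genes came to 0.403. Alternatives were RLE size factors, no filter, a replicate block, only the 2 groups compared, no low-detection libraries, DESeq2 1.42.0, limma 3.58.1 on log2(TPM + 1) and leaving out each library. Tested on simulated counts with 200 changed genes, the fit for MI_stiff against MI (11197 genes) made 92 calls, 4 of them false, and found 20% of genes changed 2-fold and 68% of those changed 4-fold. For MI against Sham (11211 genes) these shares were 17% and 65%, with 4 false among 86 calls. The data gave 4165 calls in that comparison (36.6% of all genes), far more than the 200 genes changed in the simulation. With more calls the adjustment admits larger unadjusted p, so the 17% and 65% do not give the detection rate of that test. In both simulations the changed genes were drawn at random from all filtered genes, whereas most of the list was expressed at low levels. None of these shares, the 20% and 68% included, is therefore a detection rate for the list. Counts of 0 allow 3 counts, and such limits cover counting error only.

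The genes and lists were chosen with earlier results of these data known. Levels by library are given for Mki67, Cdkn1a, Ccnd1, Pcna, E2f1, Foxm1 and the 2 genes of each functional group with the highest mean TPM, with differences for these and for every called gene. Of other cell cycle genes, the 5 called with the lowest p in a comparison are named, and Rpa1 is named beside Rpa2. Cdkn2c, Mcm2, Mcm6, Plk1, Kif20a, Aurkb, Aurka, Ccna2, Ccne1 and Tpx2 were added for their calls or values. Gene names and promoters were matched by symbol to RefSeq (GRCr8), which is another build than rn7, so its coordinates serve only the promoter sequences.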

Additional observations from a re-analysis of the deposited data

Results flagged for a closer look

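Of 128 pairs of a cell cycle gene and a group, 6 had 1 library far from the other 3 by Dixon's criterion at the 95% level, where chance gives about 5%. Ccne1 was low in Sham 4 at 0.07 TPM against 0.23 to 0.25 in the other 3, and Foxm1 in Sham 3 at 0.45 against 0.99 to 1.03. Plk1 was high in MI_soft 2 at 3.87 TPM against 2.06 to 2.31, and Aurka was low in MI_soft 4 at 0.79 against 1.65 to 1.71. Prc1 was high in MI_stiff 4 at 7.98 TPM against 4.74 to 5.24, and Mki67 was low in MI 3 at 0.24 against 0.75 to 0.82.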

How the results depend on the processing

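The number of the 32 genes called in MI against Sham was 3 under RLE size factors, no filter, the replicate block, only the 2 groups, DESeq2 and limma. Over these settings 15.2% to 19.1% of all genes were called higher. Without the low-detection libraries MI 1 stood alone for MI, so no count is given. In MI_soft against MI and in MI_stiff against MI_soft the number was 0 under all alternatives run. In MI_stiff against MI the number was 1 with DESeq2, when 2.53% of all genes were called higher. With 1 library left out it was 0 to 1, and it was 1 only without MI 1, when 7.1% were called higher. In MI_soft against Sham the number was 4 to 6 over the settings that leave out no single library. There 12% to 19.9% of all genes were called higher. In MI_stiff against Sham it was 5, when 12.7% of all genes were called higher, and 4 with RLE size factors (12.3%), 3 with no filter (9.72%), 1 with the replicate block (10.9%), 11 with only the 2 groups (21.9%), 14 without the low-detection libraries (22.7%) and 12 with limma on log2(TPM + 1) (16.2%). With 1 library left out the counts ranged from 3 to 5 in MI, 2 to 6 in MI_soft and 1 to 7 in MI_stiff, each against Sham. The cause was not tested. Of the 14 called differences 0 changed sign under any alternative, and 5 kept the call under all 23. Of 97 uncalled differences, 35 changed sign under at least 1 alternative.

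Same-numbered libraries did not deviate together: r lay between -0.285 and 0.176 over 24 pairs, 5 were over 0.1, and 2 of 16 libraries correlated best with their own number. The replicate block left 3 calls in MI, 4 in MI_soft and 1 in MI_stiff, each against Sham (Mcm2 and Cdkn3 lost it in MI_soft, and Cdkn2c, E2f1, Plk1 and Bub1 in MI_stiff), and 0 in the gel comparisons. Over all 300 bases of the promoter table, the shares of all promoters were 19.7% for CHR, 37.5% for CCAAT and 2.14% for E2F letters. In the 19 mitotic genes these shares were 73.7%, 78.9% and 5.26%. In the 8 replication and deoxynucleotide synthesis genes they were 25.0%, 62.5% and 75.0%. The SE of the log2 differences was 0.54 to 0.55 for Bub1b and 0.71 to 0.72 for Cenpf, whose group means were under 1 TPM.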
